A study of Mus musculus with 22 samples.

Results

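Colon tumours from mice eating a high-fat diet when the tumours were collected were compared with colon tumours from mice eating a low-fat diet at that time. All 22 tumours of the series entered the comparison, 11 on each side, and they were placed by the diet and treatment in their labels. The mice were male FVB/N animals whose tumours had been induced with azoxymethane, a carcinogen of the colon, and each tumour is identified by the number of its mouse, apart from 1 tumour labelled Mouse_X. The high-fat side held 5 tumours of DIO mice on a diet with 60% of its energy as fat, without sulindac, and 6 tumours of DIO_Sulindac mice on the same diet that also received sulindac, a nonsteroidal anti-inflammatory drug. The low-fat side held 6 Control tumours from mice on a diet with 10% of its energy as fat and 5 Formerly obese tumours from mice whose high-fat diet had been replaced by the low-fat one, all without sulindac. Ages, times on each diet and the dose of sulindac were not given in the sources used here. Sulindac was given only on the high-fat side, and only the low-fat side held mice whose high-fat diet had been replaced. Over all 4 groups the diet at collection therefore cannot be told apart from these histories. The difference reported for a gene is the mean of the DIO and DIO_Sulindac group means minus the mean of the Control and Formerly obese group means, on the log2 scale of the deposited values. It is also the average of a pair of smaller comparisons that share no tumour, DIO against Control and DIO_Sulindac against Formerly obese, which are given side by side below.

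Dietary fat reaches the colon as fatty acids that the epithelium can burn in mitochondria and peroxisomes, and fatty acids also activate the PPAR nuclear receptors, which switch on genes of fat oxidation. High-fat feeding of rodents is known for widening the bile acid pool, for changing insulin and adipokine signals, and for recruiting macrophages to tissues. A colon tumour is a mixture of transformed epithelium with fibroblasts, vessels and leukocytes, and in such bulk RNA fewer cells of a type and less RNA per cell cannot be told apart.

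The arrays were alike in overall level, with medians between 6.67 and 6.83 and pairwise correlations between 0.947 and 0.988 over 22203 probe sets, of which 19572 carried 1 gene symbol. The epithelial gene Vil1, which encodes villin of the brush border, did not drop below 12.11 in any tumour. Tumours of a group differed in ways the diet did not define: Formerly obese Mouse_134 had the highest mean level of the absorptive colonocyte, goblet, enteroendocrine and immediate early lists, and Formerly obese Mouse_152 that of the B and plasma cell list. The diet at collection accounted for 4.39% of the total variance over all probe sets, against a mean of 4.76% over random reassignments of the 22 tumours to 2 sides (permutation test, p = 0.559). On the first principal component, with 20.01% of the variance, the share between the diets was 0.114% (permutation p = 0.883), and on the second, with 9.60%, it was 1.88% (permutation p = 0.549).

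No gene passed the test. With limma and Benjamini-Hochberg adjustment over 22203 probe sets, 0 had an adjusted p under 0.05 (0%), and the smallest adjusted p was 0.939. Before adjustment, p was under 0.05 for 1135 probe sets, 578 higher on the high-fat diet (2.6%) and 557 lower (2.51%), where 1110 would pass with no difference at all. Differences were small: 51 probe sets differed by more than 1, the median standard error was 0.15, and for each of the 22203 probe sets the levels of the 2 sides overlapped. DIO against Control gave 0 genes with 894 probe sets at an unadjusted p under 0.05, and DIO_Sulindac against Formerly obese gave 0 genes with 1470. The test of the difference between these smaller comparisons gave 0 genes as well (smallest adjusted p 0.879, 1154 at an unadjusted p under 0.05).

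The 2 smaller comparisons ordered the genes differently. Across probe sets, which are not independent replicates, the DIO minus Control difference correlated with the DIO_Sulindac minus Formerly obese difference at Pearson's r = 0.07 (Spearman's rho = 0.04), and 50.9% of probe sets had the same sign in both. At an unadjusted p under 0.05 in both, 20 probe sets lay higher on the high-fat diet each time, 14 lay lower each time, and 41 lay in opposite directions.

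The genes described first are the 10 with the smallest p in each direction, leaving out probe sets without a symbol, predicted genes, Riken clones and olfactory, vomeronasal and taste receptors. On the higher side this passed over 1 unnamed probe set and the olfactory receptor Olfr1109 (0.60), and on the lower side 1 unnamed probe set. They were picked by their p in this comparison, so that their values are a description. Scara3, a scavenger receptor that protects cells from oxidants, had levels of 6.99, 7.19, 7.59, 7.59 and 8.48 in the DIO tumours and between 7.08 and 8.31 in the DIO_Sulindac tumours. Its levels were 5.64, 6.40, 6.56, 6.81 and 6.88 in the Formerly obese tumours and between 6.19 and 7.32 in the Control tumours. All 11 high-fat tumours lay above the low-fat median of 6.78 and 7 lay above every low-fat tumour; the difference was 0.97 ± 0.20 (SE, n = 11 and 11), with 0.73 ± 0.28 for DIO against Control and 1.21 ± 0.28 in the other comparison (limma adjusted p = 0.939).

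Csf1 encodes the growth factor on which macrophages depend. On the high-fat diet its lowest, median and highest levels were 11.78, 12.85 and 13.53, and on the low-fat diet 11.14, 12.02 and 12.66. The difference was 0.73 ± 0.19, nearly equal in both comparisons (0.78 ± 0.28 and 0.68 ± 0.28), and the low values of the high-fat side came from DIO_Sulindac tumours at 11.78 and 11.82. C1qtnf6, a secreted protein of the complement C1q and tumour necrosis factor family, had levels from 6.23 to 8.04 (median 6.69) against 5.53 to 6.61 (median 6.12), with 8 of 11 high-fat tumours above every low-fat one and a difference of 0.82 ± 0.21. Eln, the elastin of elastic fibres, ran from 5.73 to 7.66 against 4.94 to 6.49 and differed by 0.85 ± 0.22. All 11 high-fat tumours lay above the low-fat median for both genes.

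Hoxa10, a homeobox gene of posterior identity, lay between 12.75 and 14.40 on the high-fat diet and between 10.06 and 13.02 on the low-fat diet, a difference of 0.98 ± 0.26. Its lowest tumour was Formerly obese Mouse_152, at 10.06, and no other Formerly obese tumour lay under 12.08. Tcirg1, a subunit of the proton pump that acidifies vesicles, differed by 0.59 ± 0.14 and was above every low-fat tumour in 9 of 11 high-fat tumours. Slc41a2, a magnesium transporter, differed by 0.74 ± 0.17, of which 1.33 ± 0.24 came from DIO against Control and 0.16 ± 0.24 from the other comparison. Pygl, liver-type glycogen phosphorylase, had the reverse make-up, with 0.17 ± 0.27 and 1.24 ± 0.27 around a difference of 0.71 ± 0.19. Nenf, a secreted neurotrophic protein, and Ano6, a membrane scramblase, completed these 10 with differences of 0.55 ± 0.14 and 0.54 ± 0.15.

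**Figure D1:**
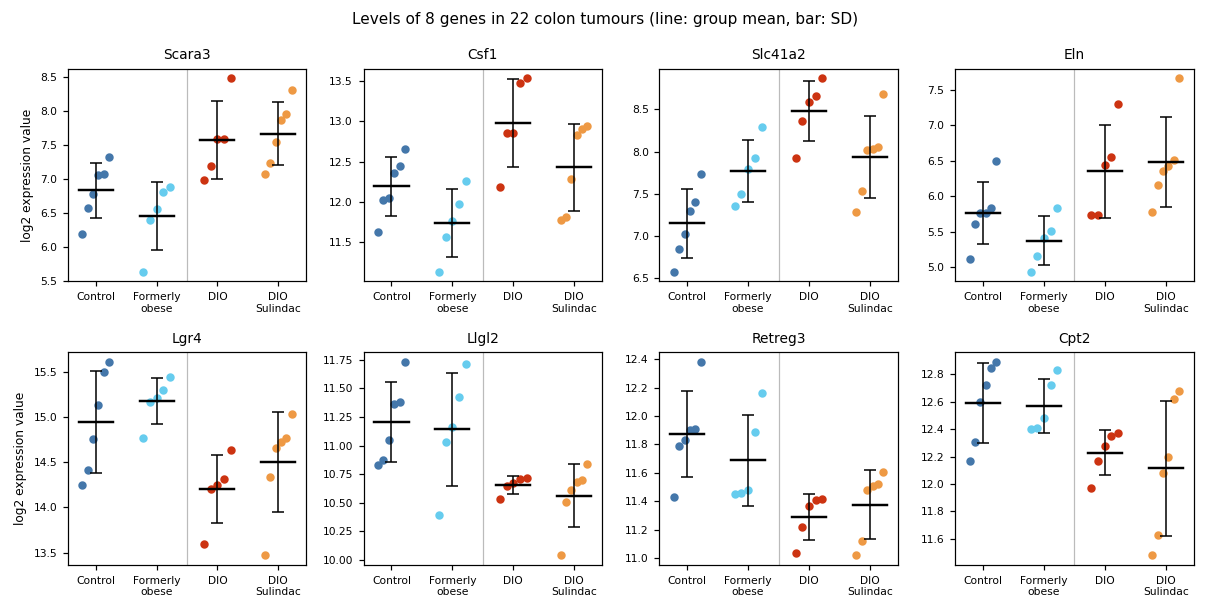
Log2 expression values (vertical axes, on separate scales) of 8 genes in each of 22 tumours, by group, with low-fat groups left and high-fat groups right of the grey line; lines are group means and bars SDs. For Scara3 and Csf1, 7 of 11 high-fat tumours lie above every low-fat tumour, and for Llgl2 and Retreg3 all 11 lie under the low-fat median, with an overlap between the sides in every panel.

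Among the genes lower on the high-fat diet, Lgr4, the R-spondin receptor that amplifies WNT signals in crypts, had levels from 13.47 to 15.04 (median 14.34) against 14.25 to 15.61 (median 15.17). All 11 high-fat tumours lay under the low-fat median, and the difference was -0.71 ± 0.19 (-0.74 ± 0.27 and -0.68 ± 0.27). Llgl2, a polarity protein of the basolateral membrane, stayed between 10.53 and 10.72 in the 5 DIO tumours and between 10.04 and 10.84 in the DIO_Sulindac tumours. The low-fat tumours ranged from 10.39 to 11.73, 9 of 11 above every high-fat tumour, and the difference was -0.56 ± 0.14. Phldb1, a protein of microtubule anchoring at the cell cortex, differed by -0.41 ± 0.10, H1f7, a testis histone that was dim here with a highest level of 6.04, by -0.50 ± 0.12, and Zp3r, a sperm protein that was dimmer still, by -0.38 ± 0.10.

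The other genes of this group of 10 lay on chromosome 11. Retreg3, an endoplasmic reticulum protein of the reticulophagy family, had levels of 11.04, 11.22, 11.37, 11.41 and 11.42 in the DIO tumours and from 11.02 to 11.61 in the DIO_Sulindac tumours, all under the low-fat median of 11.83. The difference was -0.45 ± 0.12. Stard3, a cholesterol-binding protein of late endosomes, differed by -0.54 ± 0.14, and Wipf2, a partner of the actin regulator WASP, by -0.52 ± 0.14. Ccdc137 and Ppm1e, a phosphatase, differed by -0.55 ± 0.12 and -0.50 ± 0.13. With Llgl2, 6 of the 10 genes described on the lower side were on this chromosome, and each lay beyond the point on it described next.

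Levels along the chromosomes were then followed for 9812 genes with a mean level above 7, as each gene's deviation from its median over the 22 tumours, in RefSeq gene order. This was done after the 10 genes had been seen. Of 440 pairs of a tumour and a chromosome, 98.2% had a median deviation within 0.1 of zero, and 7 were beyond 0.15 in either direction. Control Mouse_27 was raised on chromosome 8 by 0.39, with 83.2% of 547 genes above zero, on chromosome 11 by 0.25 and on chromosome 2 by 0.22. DIO_Sulindac Mouse_131 was raised on chromosome 7 by 0.36 with 76.1% of 703 genes above zero, and had -0.17 on chromosome 4. Control Mouse_32 was raised on chromosome 12 by 0.19 and Formerly obese Mouse_152 on chromosome 11 by 0.18.

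**Figure D2:**
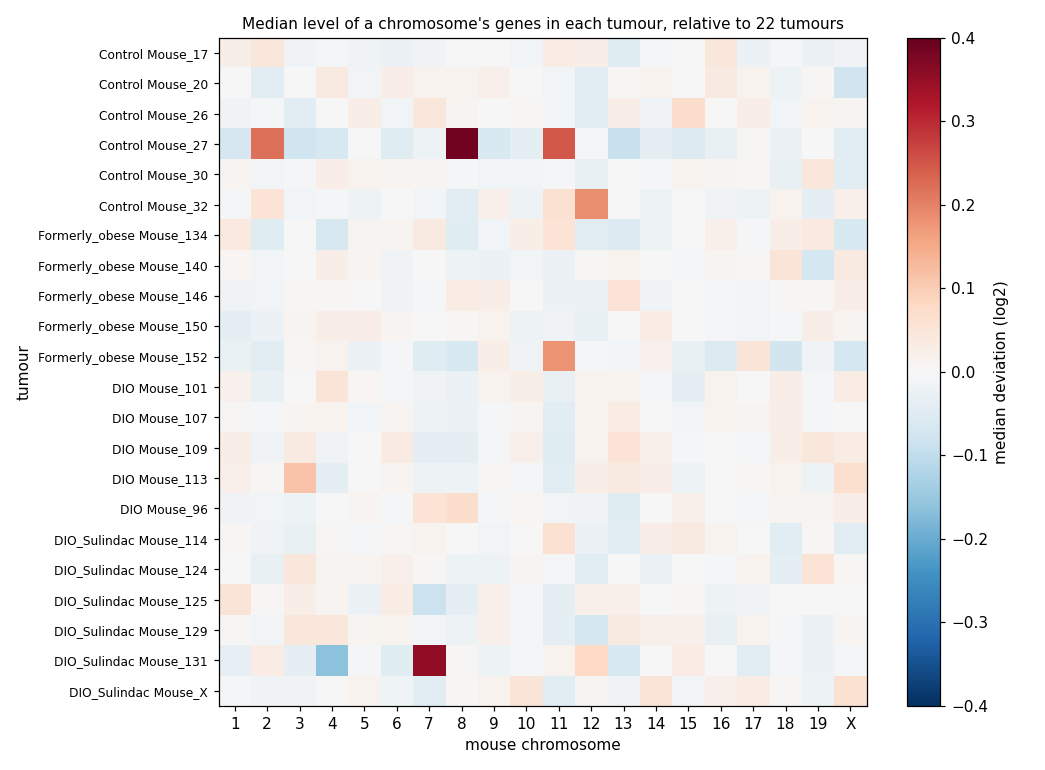
Median deviation (log2, colour) of the genes of each mouse chromosome (horizontal axis) in each of 22 tumours (vertical axis, by group) from the median over all tumours. The strongest colours are Control Mouse_27 on chromosome 8 (0.39) and DIO_Sulindac Mouse_131 on chromosome 7 (0.36), and both tumours raised on chromosome 11 are on the low-fat side.

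On chromosome 11 the shift began part of the way along. In Control Mouse_27 the 380 genes up to Vps53 had a median deviation of -0.07 and the 430 genes from Tlcd3a onward 0.59, with 89.5% of them above zero. In Formerly obese Mouse_152 the best division fell somewhat earlier in the gene order, between Rpa1 and Wdr81, with -0.03 before it and 0.42 after it. The medians of the other 20 tumours over the same stretch lay between -0.10 and 0.09, but shorter pieces of it were raised in 2 of them. With the gene order divided into 10 runs of 81 genes, Formerly obese Mouse_134 stood at 0.31 and 0.33 in the last 2, where Formerly obese Mouse_152 stood at 0.31 and 0.41, and DIO_Sulindac Mouse_114, on the high-fat side, stood at 0.21, 0.20 and 0.26 in the last 3. Both shifted tumours were on the low-fat side, and 14.6% of the 479 named genes lower on the high-fat diet at an unadjusted p under 0.05 were on chromosome 11, which holds 7.56% of all 19505 named genes; of the 516 higher ones, 5.43% were there. Without these 2 tumours the share among 463 lower genes was 9.94%, and the median difference of the 430 distal genes moved from -0.15 to -0.05. What produced the shifts was not tested.

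**Figure D3:**
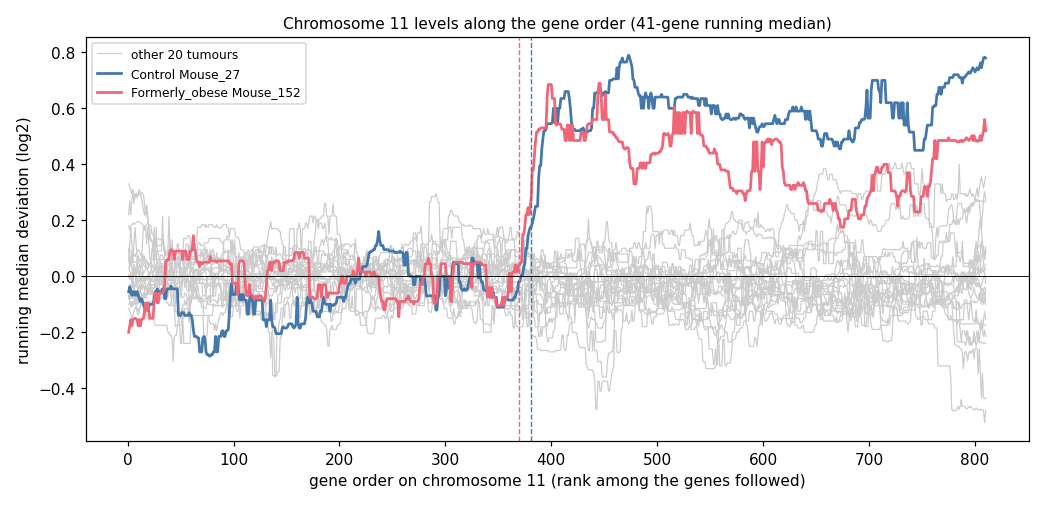
Running median over 41 genes of the deviation (log2, vertical axis) along the gene order of chromosome 11 (horizontal axis, rank among 810 genes), for Control Mouse_27, Formerly obese Mouse_152 and, in grey, the other 20 tumours; dashed lines mark each tumour's best division. Both coloured lines leave the grey band near rank 380 and stay above zero to the end of the chromosome, with medians of 0.59 and 0.42, while some grey lines reach the level of Formerly obese Mouse_152 in the last part.

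The distal chromosome 11 genes named above stayed lower on the high-fat diet without those tumours. They had been picked by their p with those tumours included, so the part of the regional shift in them was not tested. Formerly obese Mouse_134, at 0.31 and 0.33 in the final runs of the gene order, also stayed in. Its Llgl2 level of 11.71 was the highest of the remaining low-fat tumours. Without Control Mouse_27 and Formerly obese Mouse_152, Llgl2 differed by -0.52 ± 0.15, Ccdc137 by -0.50 ± 0.13 and Stard3 by -0.45 ± 0.14. Retreg3 moved from -0.45 to -0.34 ± 0.11, and its levels in Control Mouse_27 and Formerly obese Mouse_152, 12.38 and 12.16, were above the highest of the other 9 low-fat tumours at 11.91. Wipf2 showed the same order, with 12.21 and 12.49 against a highest of 12.10, and its difference moved from -0.52 to -0.41 ± 0.14. Ppm1e did not follow, at 5.23 and 5.54 in these tumours against 5.41 to 6.57 in the others, and differed by -0.60 ± 0.13 without them.

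Genes of fat oxidation and PPAR targets leaned to lower levels on the high-fat diet. Of 29 measured members, 24 lay lower and 5 higher, with a median difference of -0.14. Over all probe sets the median was -0.0035 and 49.0% lay higher. Of the members 0 passed the test, and 1 in each direction had an unadjusted p under 0.05. The share of all probe sets at that p was 2.6% higher and 2.51% lower. In both smaller comparisons 9 of the 29 lay higher, with medians of -0.11 and -0.11. Cpt2, which releases fatty acids for oxidation inside the mitochondrion, had levels from 11.48 to 12.68 (median 12.20) against 12.17 to 12.89 (median 12.60), with 9 of 11 high-fat tumours under the low-fat median and a difference of -0.41 ± 0.14.

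Textbook markers of fatty acid exposure showed no common direction. Cpt1a, which commits fatty acids to mitochondrial import, had 7 of 11 high-fat tumours above the low-fat median and a difference of -0.16 ± 0.16. Angptl4, an inhibitor of lipoprotein lipase induced by PPARs, differed by -0.20 ± 0.18, and Plin2, the coat protein of lipid droplets, by 0.03 ± 0.14. Pdk4, the kinase that turns fuel use from glucose to fat, ranged from 6.72 to 13.82 against 6.02 to 10.47, and its difference of 0.44 ± 0.69 became -0.07 without DIO_Sulindac Mouse_X, the tumour at 13.82. The fatty acid transporter Cd36 differed by 0.53 ± 0.32, and Fabp1, the liver-type fatty acid binding protein, was dim in every tumour (3.91 to 5.23).

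Of the genes of fat absorption and chylomicrons, 16 of 25 lay lower (median -0.09). Among them were Agpat2, an enzyme of triglyceride assembly, at -0.42 ± 0.21 and Slc27a4, a fatty acid transport protein, at -0.31 ± 0.17. For DIO against Control 13 of the 25 lay higher (median 0.02), and in the other comparison 10 did (median -0.12). The list's median was 0.02 without the Formerly obese group. Slc27a4 differed by -0.16 without Formerly obese Mouse_134, its highest tumour at 10.54. Fatty acid synthesis was divided, 9 of 19 higher (median -0.04). Within it Fads2, the desaturase of polyunsaturated fatty acids, was higher in 10 of 11 high-fat tumours than the low-fat median and differed by 0.59 ± 0.24, while Fasn, the fatty acid synthase, differed by -0.29 ± 0.21 and Scd1, the main desaturase of saturated fatty acids, by -0.15 ± 0.35. Cholesterol synthesis and uptake had 15 of 19 genes higher but by little (median 0.10), with Fdps of the mevalonate pathway at 0.26 ± 0.16. The median was 0.0060 for DIO against Control, with 11 higher, and 0.15 in the other comparison, with 16 higher; it was -0.020 without the sulindac group and -0.0023 without DIO_Sulindac Mouse_129 alone. Bile acid receptors and transporters had 15 of 20 lower (median -0.10), with Klb, the co-receptor of the hormone FGF15, at -0.43 ± 0.24. Klb was highest in Formerly obese Mouse_140, at 6.83, and differed by -0.25 without that tumour. The next highest level, 6.26, was in DIO_Sulindac Mouse_131 on the high-fat side. Slc51b, a subunit of the basolateral bile acid exporter, had a median of 5.27 on both sides; its difference of -0.50 ± 0.25 was 0.10 ± 0.35 for DIO against Control and -1.11 ± 0.35 in the other comparison.

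Insulin, IGF and adipokine signalling had 17 of 29 genes higher (median 0.11). Igfbp7, an IGF-binding protein of vessels and stroma, lay from 15.20 to 16.15 against 13.88 to 15.99, all 11 high-fat tumours above the low-fat median, and differed by 0.45 ± 0.19. Igf1 differed by 0.56 ± 0.32, with 10 of 11 above the low-fat median and DIO Mouse_113 highest at 17.72. Foxo1, the transcription factor that insulin restrains, differed by -0.25 ± 0.10. The adipocyte hormones were near the dim end in every tumour: Lep, leptin, ranged from 4.03 to 5.36 and Adipoq, adiponectin, from 3.86 to 5.27, with differences of -0.04 ± 0.15 and -0.07 ± 0.15. Retn, resistin, also dim, had all 11 high-fat tumours under the low-fat median of 4.89 and differed by -0.35 ± 0.13. The adipocyte list as a whole had 7 of 13 members higher (median 0.03).

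Leukocyte and stromal genes leaned to higher levels on the high-fat diet. Of 16 macrophage and monocyte genes 15 lay higher, with a median of 0.39 and medians of 0.33 and 0.41 in the smaller comparisons. Of these genes 0 passed the test, and 2 were higher at an unadjusted p under 0.05, as were 2.6% of all probe sets. Adgre1, which encodes the macrophage antigen F4/80, ran from 7.18 to 8.91 (median 8.20) against 7.18 to 8.74 (median 7.79), with 10 of 11 high-fat tumours above the low-fat median and a difference of 0.44 ± 0.20. C1qc, a complement chain made by macrophages, differed by 0.43 ± 0.19 and the integrin Itgam by 0.49 ± 0.26. The mean level of the list overlapped widely between the sides, from 8.33 to 9.83 against 8.11 to 9.78.

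Neutrophil genes had 12 of 15 higher (median 0.42), with the alarmin S100a9 at 9.52 against 7.73 in median and a difference of 1.20 ± 0.67; Elane, the neutrophil elastase of marrow precursors, was at the dim end (3.85 to 4.68) and differed by -0.23 ± 0.10. Mast cell genes had 10 of 12 higher (median 0.33), among them the proteases Cma1 (0.37 ± 0.23) and Tpsab1 (0.74 ± 0.57) and the IgE receptor chain Ms4a2 (0.67 ± 0.43). T and NK cell genes had 16 of 20 higher (median 0.16), with Cd3e of the T cell receptor complex at 0.68 ± 0.48 and Cd5 at 0.41 ± 0.26. B and plasma cell genes had 13 of 15 higher (median 0.25), with Jchain, the joining chain of secreted antibodies, at 1.25 ± 0.59 and Irf4, a regulator of plasma cells, at 0.64 ± 0.39. In both genes Formerly obese Mouse_152 was the highest of all 22 tumours, at 17.43 and 8.06, although it belongs to the lower side. For DIO against Control 14 of the 15 B and plasma cell genes lay higher (median 0.29), and in the other comparison 7 did (median -0.01). MHC class II presentation had 12 of 13 higher (median 0.25), with H2-DMa, the peptide exchange factor, at 0.56 ± 0.33, the costimulator Cd86 at 0.32 ± 0.20 and H2-Aa at 0.50 ± 0.38. The difference of H2-Aa was 0.00 ± 0.53 for DIO against Control and 1.003 ± 0.53 in the other comparison. Single tumours or groups moved these medians: it was 0.16 for mast cell genes without DIO_Sulindac Mouse_131, 0.03 for T and NK cell genes without DIO Mouse_109, 0.27 for neutrophil genes without DIO_Sulindac Mouse_114, 0.43 for B and plasma cell genes without Formerly obese Mouse_152 and 0.15 without Formerly obese Mouse_146 or DIO_Sulindac Mouse_125, and -0.0042 for MHC class II without the sulindac group.

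Matrix and mesenchymal genes had 21 of 26 higher (median 0.34). Mmp2, a gelatinase of stromal cells, lay from 10.64 to 12.13 against 9.43 to 11.37 and differed by 0.54 ± 0.20. Sparc, a collagen-binding matrix protein, differed by 0.49 ± 0.24 and Tgfb3, a growth factor of fibrosis, by 0.61 ± 0.30. The difference of Tgfb3 was 0.08 without the Formerly obese group and 0.89 without the sulindac group. Fibroblast markers had 15 of 16 higher (median 0.34), with the collagen chain Col1a2 at 0.74 ± 0.29 and the matrix proteins Dpt and Dcn at 0.63 ± 0.29 and 0.44 ± 0.21. Endothelial and lymphatic markers had 13 of 16 higher (median 0.30), with the TGF-beta co-receptor Eng at 0.52 ± 0.22 and Vwf, the clotting factor carrier of vessels, at 0.62 ± 0.27. For DIO against Control 11 of the 16 fibroblast markers lay higher (median 0.09), and in the other comparison 15 did (median 0.53). Without the Formerly obese group the median was 0.14 for the matrix list and 0.18 for the endothelial list. Without the sulindac group it was 0.21 for the fibroblast list. Smooth muscle (8 of 14 higher, median 0.07) and the enteric neuron and glia list (3 of 11 higher, median -0.08) did not share that lean. The leukocyte and stromal lists lay higher where the absorptive colonocyte list (15 of 18 lower, median -0.41) and the enteroendocrine list (11 of 14 lower, median -0.38) lay lower, and the part of the cell mixture in any of these differences was not tested.

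**Figure D4:**
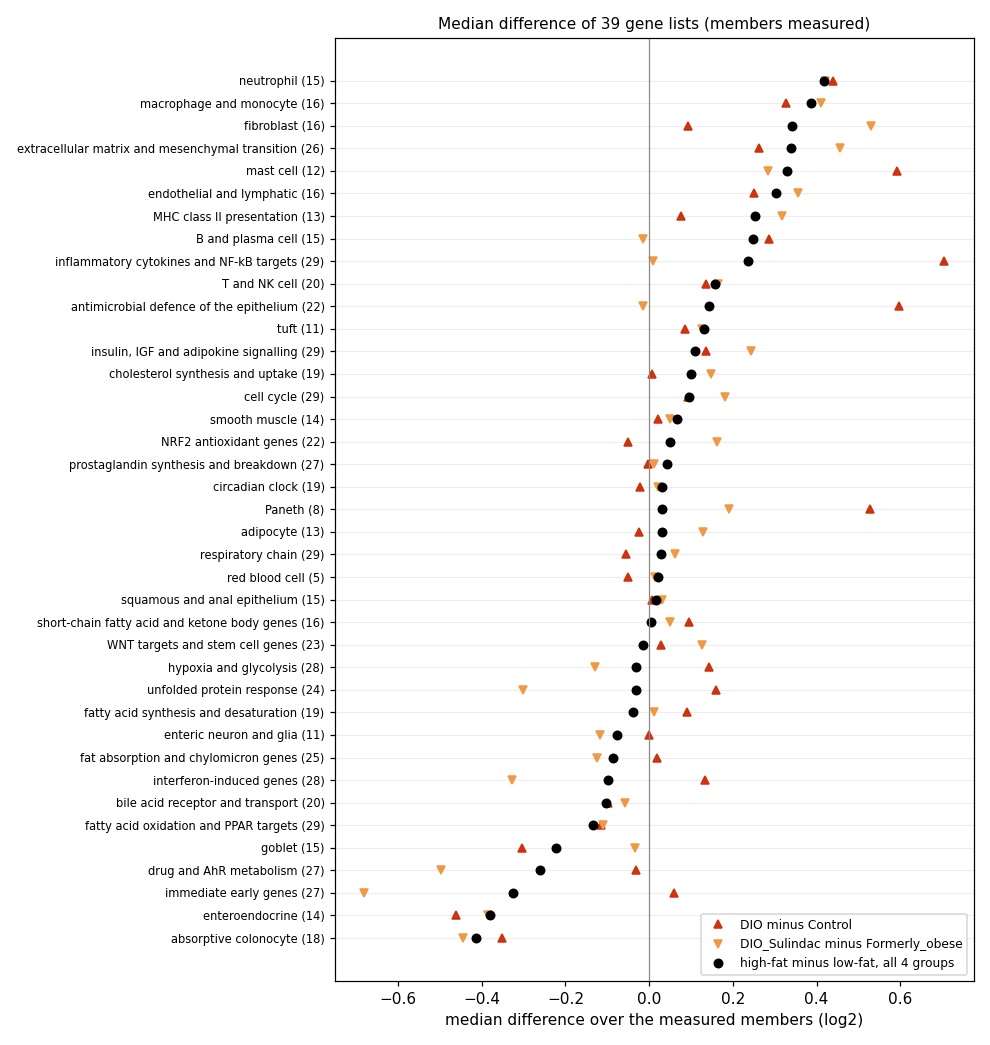
Median log2 difference over the measured members (horizontal axis) of 39 gene lists (vertical axis, number of members in brackets) for high-fat minus low-fat over all 4 groups (black circles) and for the 2 smaller comparisons (triangles). Neutrophil (0.42) and macrophage (0.39) genes lie at the top and absorptive colonocyte genes (-0.41) at the bottom, and the triangles of the inflammatory list (0.71 and 0.01) and the immediate early list (0.06 and -0.68) lie far apart.

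Inflammatory cytokines and NF-kB targets had 23 of 29 higher (median 0.24), but the median was 0.71 for DIO against Control, with 26 higher, and 0.01 in the other comparison, with 15 higher. Cxcl2, a neutrophil-attracting chemokine, ran from 8.25 to 15.32 (median 12.15) against 6.83 to 13.09 (median 11.04) and differed by 1.31 ± 0.79. Its relative Cxcl3 differed by 1.03 ± 0.58, and Ccl4, a chemokine for macrophages and T cells, had all 11 high-fat tumours above the low-fat median of 5.20 and differed by 0.67 ± 0.37. The cytokines Il1b, Il6 and Tnf differed by 0.50 ± 0.64, 0.09 ± 0.41 and 0.24 ± 0.36. Il1b differed by 0.15 without DIO_Sulindac Mouse_114, Il6 by -0.16 without DIO Mouse_96 and Tnf by 0.053 without Formerly obese Mouse_140. Saa3, an acute-phase protein of epithelium and macrophages listed with the antimicrobial defence genes (13 of 22 higher, median 0.14), was 2.17 ± 0.62 higher in DIO than in Control tumours and differed by -0.34 ± 0.62 in the other comparison. Its levels were 9.81, 9.92, 10.72, 12.44 and 13.33 in the DIO tumours and between 8.05 and 9.85 in the Control tumours.

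The upstream windows of 3 of these genes are shown because a chemokine and the macrophage growth factor hold the same short NF-kB sequence and because Wipf2 stands for the distal chromosome 11 genes. Each is the RefSeq window of 250 bases before the gene's start in build GRCm38.p6, printed 5′ to 3′ on the gene's strand, with a motif match in capitals. Csf1 is at chr3:107760470-107760719 on the minus strand, Cxcl2 at chr5:90903649-90903898 on the plus strand and Wipf2 at chr11:98863348-98863597 on the plus strand.
Csf1: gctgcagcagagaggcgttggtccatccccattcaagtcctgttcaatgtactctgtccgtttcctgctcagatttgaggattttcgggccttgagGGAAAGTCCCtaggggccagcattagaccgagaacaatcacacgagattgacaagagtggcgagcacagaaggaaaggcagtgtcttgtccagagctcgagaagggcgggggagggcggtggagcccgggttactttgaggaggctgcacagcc
Cxcl2: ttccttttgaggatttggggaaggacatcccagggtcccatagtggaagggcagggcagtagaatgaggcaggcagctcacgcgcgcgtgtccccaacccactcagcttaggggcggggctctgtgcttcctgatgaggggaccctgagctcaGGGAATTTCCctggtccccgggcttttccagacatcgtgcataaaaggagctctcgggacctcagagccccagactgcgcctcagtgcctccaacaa
Wipf2: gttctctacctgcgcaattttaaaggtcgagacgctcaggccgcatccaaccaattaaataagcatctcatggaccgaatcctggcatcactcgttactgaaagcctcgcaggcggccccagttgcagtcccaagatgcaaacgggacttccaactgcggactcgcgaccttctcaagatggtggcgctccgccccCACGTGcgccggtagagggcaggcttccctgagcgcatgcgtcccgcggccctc
The capitals mark the NF-kB sequence, GGGA and TTTCC with any 1 base between them, on either strand in Csf1 and Cxcl2, and the E-box CACGTG in Wipf2; no second match of the 4 motifs searched lies in these windows. The NF-kB sequence occurs in 0.356% of 32851 RefSeq windows of this length and in 5 of the 19 members of the inflammatory list that have a window, which are Cxcl1, Cxcl2, Cxcl3, Il6 and Nfkbia; the list was drawn up from known NF-kB targets. Of the 10 genes described first on the higher side, 7 have a window, and Csf1 alone of them holds it. CACGTG occurs in 6.02% of all windows, and TGANTCA, the AP-1 sequence, in 6.75%. The PPAR direct repeat, AGGNCA on both sides of any 1 base, occurs in 0.338% of all windows and in 0 of the 23 fat oxidation members that have one. A match is a description of the letters, and these arrays do not measure binding.

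Genes of the differentiated epithelium leaned to lower levels on the high-fat diet. Absorptive colonocyte markers had 15 of 18 lower, with a median of -0.41 and medians of -0.35 and -0.45 in the smaller comparisons, and 0 passed the test. Vil1 had levels from 12.11 to 13.91 (median 13.62) against 12.80 to 14.42 (median 13.90), with 10 of 11 high-fat tumours under the low-fat median and a difference of -0.39 ± 0.21. Slc26a3, the chloride and bicarbonate exchanger of the colon surface, spread from 5.79 to 11.96 against 6.84 to 14.30, wider than its difference of -0.83 ± 0.75. Goblet cell genes had 11 of 15 lower (median -0.22), and Spdef, their transcription factor, differed by -0.90 ± 0.48, with Formerly obese Mouse_134 at 10.06 and no other tumour above 7.49. Without the Formerly obese group the median was -0.11 for the colonocyte list and 0.06 for the goblet list. As single tumours were left out, the colonocyte median ranged from -0.61 to -0.22 and the goblet median from -0.44 to 0.03.

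Enteroendocrine genes had 11 of 14 lower (median -0.38), and 3 of them were lower at an unadjusted p under 0.05, as were 2.51% of all probe sets. Pcsk1, which cleaves prohormones, lay between 4.55 and 6.03 on the high-fat diet and between 4.16 and 9.55 on the low-fat diet, a difference of -1.22 ± 0.51. The granins Chga and Chgb differed by -1.40 ± 0.64 and -1.13 ± 0.52. In all 3 the high-fat tumours stayed at or under 6.67, and a few low-fat tumours made the difference: Chga stood at 11.17 in Control Mouse_26 and at 9.28 and 9.85 in Formerly obese tumours, and in no other tumour above 6.74. Without Formerly obese Mouse_134 the median of the list was -0.21. The remaining epithelial lists were divided, with tuft cell genes 7 of 11 higher (median 0.13), Paneth cell genes 4 of 8 (median 0.03) and squamous genes 9 of 15 (median 0.02). The tuft median was -0.07 without DIO_Sulindac Mouse_131, and the Paneth median ranged from -0.23 to 0.44 as single tumours were left out. Red blood cell genes were 3 of 5 higher (median 0.02).

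**Figure D5:**
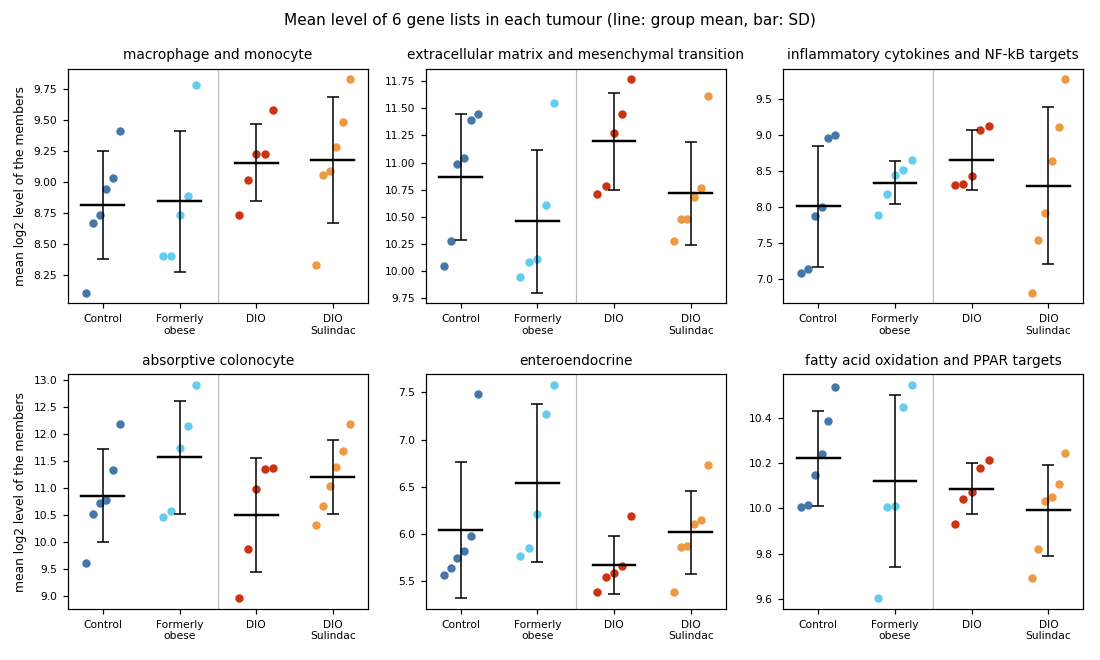
Mean log2 level of the measured members (vertical axes, on separate scales) of 6 gene lists in each of 22 tumours, by group, with low-fat groups left and high-fat groups right of the grey line; lines are group means and bars SDs. The sides overlap in every panel, for example 8.33 to 9.83 against 8.11 to 9.78 for macrophage genes, and the highest enteroendocrine values belong to low-fat tumours.

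Stem cell and growth genes showed no common direction. WNT targets and stem cell genes had 11 of 23 higher (median -0.01). Sox9, a transcription factor of crypt progenitors that lies beyond the division on chromosome 11, had 10 of 11 high-fat tumours under the low-fat median and differed by -0.34 ± 0.18, and -0.35 ± 0.19 without the 2 tumours raised there. Hopx, a marker of reserve stem cells, differed by -0.39 ± 0.22, and Lgr5, the crypt stem cell receptor, by 0.83 ± 0.65 with levels from 7.96 to 14.12 on the low-fat side alone. Cell cycle genes had 19 of 29 higher (median 0.10), with Cenpa of the centromere at 0.43 ± 0.21, the cyclin Ccna2 at 0.39 ± 0.22 and the proliferation antigen Mki67 at 0.31 ± 0.17.

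Sulindac blocks the cyclooxygenases, and prostaglandin genes had 16 of 27 higher (median 0.04). Of these, 3 were higher at an unadjusted p under 0.05, as were 2.6% of all probe sets. Ptger2, a receptor for prostaglandin E2, ran from 5.33 to 6.86 against 5.02 to 6.06 and was above every low-fat tumour in 6 of 11 high-fat tumours, a difference of 0.51 ± 0.17. Ptgr1, a reductase that inactivates eicosanoids, differed by 0.95 ± 0.41. Ptgs2, the inducible cyclooxygenase, differed by -0.23 ± 0.54, made of 0.51 ± 0.77 and -0.97 ± 0.77.

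Drug and AhR metabolism had 21 of 27 lower (median -0.26), with Ces2a, a carboxylesterase of the gut, from 4.78 to 9.57 (median 5.68) against 5.06 to 11.86 (median 7.70) and a difference of -1.64 ± 0.76. Cyp1a1, the classical AhR target, was dim throughout (3.77 to 4.5) and differed by -0.18 ± 0.09. Without the Formerly obese group the list's median was 0.03, and as single tumours were left out it ranged from -0.40 to 0.03. Immediate early genes had 22 of 27 lower (median -0.33), with Btg2, an antiproliferative gene, at -0.69 ± 0.27 and the nuclear receptor Nr4a2 at -0.77 ± 0.37. For this list the median was 0.06 for DIO against Control and -0.68 in the other comparison. It was -0.037 without the Formerly obese group, and -0.07 without Formerly obese Mouse_134 and DIO_Sulindac Mouse_X. The mean level of the list was 11.88 in Formerly obese Mouse_134 and 11.64 in Formerly obese Mouse_140, and no other tumour was above 10.4. Nr4a2 stood at 12.03 and 13.44 in these tumours, and in no other tumour above 10.91.

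Several lists lay in opposite directions in the smaller comparisons, and no member passed the test of that difference. Unfolded protein response genes had 19 of 24 higher in DIO than in Control tumours (median 0.16) and 5 of 24 in DIO_Sulindac against Formerly obese tumours (median -0.30). Xbp1, its transcription factor, had levels of 14.62, 14.81, 14.84, 14.99 and 15.26 in the DIO tumours, all above the Control range of 13.86 to 14.53, a difference of 0.69 ± 0.18, and differed by -0.32 ± 0.18 in the other comparison. Trib3, a stress-induced pseudokinase, had 0.63 ± 0.19 and -0.13 ± 0.19, and the chaperone Creld2 had 0.17 ± 0.31 and -0.76 ± 0.31. Interferon-induced genes had 21 of 28 and 6 of 28 higher (medians 0.13 and -0.33), with Ifit3b at -0.19 ± 0.61 and -0.95 ± 0.61 and Usp18 at 0.99 ± 0.67 and 0.09 ± 0.67. Hypoxia and glycolysis genes had 21 of 28 and 7 of 28 higher (medians 0.14 and -0.13), while the oxygen-sensing transcription factor Hif1a and Pfkfb3, an activator of glycolysis, had all 11 high-fat tumours above the low-fat median and differed by 0.37 ± 0.15 and 0.63 ± 0.25 over all groups.

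With the same families left out, the 6 genes with the smallest p for the difference between the smaller comparisons, 3 in each direction, were chosen on it and are described only. Pcif1, an mRNA cap methyltransferase, was -0.43 ± 0.21 for DIO against Control and 0.90 ± 0.21 in the other comparison, Pnpla2, the first lipase of fat droplets, -0.45 ± 0.15 and 0.44 ± 0.15, and Hgh1 -0.64 ± 0.18 and 0.43 ± 0.18. In the reverse order lay Tex16 (0.56 ± 0.18 and -0.59 ± 0.18), the melanin-concentrating hormone gene Pmch (0.50 ± 0.14 and -0.37 ± 0.14) and the inflammasome sensor Nlrp1b (0.46 ± 0.18 and -0.62 ± 0.18). Their differences over all 4 groups lay between -0.10 and 0.23.

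Lists with medians close to that of all probe sets were the respiratory chain (19 of 29 higher, median 0.03), NRF2 antioxidant genes (14 of 22, median 0.05), short-chain fatty acid and ketone body genes (8 of 16, median 0.0038) and the circadian clock (11 of 19, median 0.03). Within the clock list Bhlhe41, a repressor of the core clock, differed by 0.77 ± 0.34, with 9 of 11 high-fat tumours above the low-fat median. Over all 39 lists 744 of 815 listed genes were measured, and 0 passed the test.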

How the data were processed

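Total RNA of colon tumours was hybridised to Clariom S arrays, per the labels' protocols. The authors deposited 1 log2 expression value per probe set and array. The base of the log was read from the range of 3.34 to 19.49, no source used here states the background correction or normalization, and Transcriptome Analysis Console 4.0 is named in the submitters' processing notes. No depth applies to arrays; the number of tumours limits the precision. A mean was fitted for each of the 4 groups with limma 3.58.1 in R 4.3.3 (lmFit, contrasts.fit, eBayes), and the contrast averaged the group means within each side. The threshold was an adjusted p of 0.05 over 22203 probe sets, two-sided; errors are limma's standard errors, and the calculation was tested on simulated data. The limma p-values set a difference of group means against the spread between tumours within the 4 groups, moderated over the probe sets by eBayes. The variance shares were tested with 100000 permutations, one-sided for a larger share.

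Probe sets were named through the platform annotation, 2631 being unnamed here, and a gene with several probe sets was represented by the one with the highest mean. Chromosomes and gene order came from the RefSeq GRCm38.p6 table. The genes named were the 10 with the smallest p in each direction (unnamed probe sets, predicted genes, Riken clones and olfactory, vomeronasal and taste receptors left out), members of each list with the smallest p (up to 3 a list), a set of diet, cytokine and stem cell genes, and 3 in each direction for the difference between the smaller comparisons. The members and lists were chosen with earlier results of these data known. Some items that the rule would name are not reported here. Alternatives were quantile normalization, equal weights of arrays on each side, array weights, leaving out a group or each tumour, filters on dim or unnamed probe sets, and other variance settings. The labels give no batch, and no number is shared between groups.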

Additional observations from a re-analysis of the deposited data

Results flagged for a closer look

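Of 572 groups of values examined, 45 held a tumour set far apart from the rest of its own group of 5 or 6, where chance sets 1 in 20 apart. These groups share tumours and genes, so they are not independent, and their number was not tested against chance. No cause was tested, and the values below are mean levels of the members for lists and levels for genes, on the log2 scale.

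Formerly obese Mouse_152 stood apart in leukocyte genes: Itgam was 10.04 (others 8.02 to 8.55), S100a9 10.67 (7.0 to 7.92), Jchain 17.43 (13.45 to 14.38) and Irf4 8.06 (4.47 to 5.27). Its lists were 9.26 for MHC class II presentation (7.66 to 7.81), 7.51 for neutrophil genes (6.18 to 6.53) and 9.03 for B and plasma cell genes (6.19 to 6.58), while Hoxa10 was 10.06 (12.08 to 12.69). This tumour on the low-fat side also had the raised distal chromosome 11. Without it, 730 probe sets were higher and 583 lower on the high-fat diet at an unadjusted p under 0.05, against 578 and 557 with it, and 0 passed limma's test.

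Formerly obese Mouse_134 stood apart with Spdef at 10.06 (5.34 to 6.21), Slc27a4 at 10.54 (8.79 to 9.26), Phldb1 at 7.11 (6.80 to 6.86), Adipoq at 5.27 (4.14 to 4.36) and drug and AhR metabolism at 10.5 (7.23 to 7.68). In Control Mouse_26, Chga was 11.17 (4.90 to 5.88), Chgb 8.57 (5.26 to 6.25) and the enteroendocrine list 7.48 (5.56 to 5.98), with Cma1 at 5.35 (4.56 to 4.79) and Cd3e at 7.51 (9.09 to 9.84). DIO_Sulindac Mouse_114 had Ptgs2 at 11.69 (7.68 to 9.01), Cpt1a at 10.92 (11.87 to 12.01), matrix and mesenchymal genes at 11.6 (10.3 to 10.8) and bile acid genes at 6.52 (7.15 to 7.31).

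In DIO_Sulindac Mouse_X, Pdk4 was 13.82 (6.72 to 8.65), C1qtnf6 7.30 (6.53 to 6.78) and Ifit3b 6.97 (8.76 to 9.31). In DIO_Sulindac Mouse_131, which was raised on chromosome 7, tuft cell genes were 7.18 (5.17 to 5.57), prostaglandin genes 8.44 (7.98 to 8.11) and Klb 6.26 (4.59 to 4.86). DIO_Sulindac Mouse_125 had B and plasma cell genes at 8.50 (6.66 to 6.97) and Irf4 at 7.62 (5.32 to 5.6), and DIO_Sulindac Mouse_129 had Scd1 at 9.27 (11.08 to 11.52) and Tgfb3 at 6.08 (7.37 to 8.03).

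In DIO Mouse_113, Igf1 was 17.72 (15.58 to 15.90), Lgr5 13.69 (11.51 to 12.07) and Tpsab1 11.78 (9.36 to 9.95). DIO Mouse_96 had Ces2a at 9.57 (4.78 to 5.81) and cholesterol genes at 11.4 (11.9 to 12.2), DIO Mouse_101 had Slc51b at 4.48 (5.19 to 5.44), and DIO Mouse_109 had Ifit3b at 10.26 (8.20 to 8.28). Formerly obese Mouse_140 had Il6 at 8.10 (4.89 to 5.69) and Ms4a2 at 7.87 (5.25 to 5.96), and Formerly obese Mouse_150 had Fabp1 at 5.22 (4.20 to 4.40). Control Mouse_17 had Vil1 at 12.80 (13.84 to 14.42), Control Mouse_32 had Nlrp1b at 6.80 (5.91 to 6.16), and Control Mouse_27 had fatty acid synthesis genes at 10.4 (9.88 to 10.1).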

How the results depend on the processing

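The count of genes passing for high-fat against low-fat was 0 in all 33 alternatives, with smallest adjusted p-values between 0.545 and 0.987 (limma) and between 955 and 1313 probe sets at an unadjusted p under 0.05; without moderation it was 0 as well, with 1150. The counts for the smaller comparisons and for their difference were also 0 in the 1 alternative run for each, and the share of variance between the diets was 4.34% and 4.37% in its alternatives. No paired analysis was possible because the groups share no mouse number. Leaving out the 2 tumours raised on chromosome 11, or the 2 apart on principal components 2 and 3 (Formerly obese Mouse_134 and DIO_Sulindac Mouse_X), was chosen after seeing the data. Of 104 named genes, 89 had the same sign in all 30 settings. Many of these genes were picked by their p here and most settings left out 1 tumour, so a kept sign is a description. Of 39 list medians 17 had the same sign in all 31 of their settings. Among them were the macrophage, neutrophil, mast cell, fibroblast, endothelial, matrix, fat oxidation, bile acid, colonocyte, enteroendocrine and immediate early lists.

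The differences that changed sign were these, and the cause was not tested. Without the sulindac group, Angptl4 was 0.25, Ptgs2 0.39, Tex16 0.34, Nlrp1b 0.16, Pcif1 -0.21 and H2-Aa -0.017. Without the Formerly obese group, Plin2 was -0.15, Scd1 0.27, Slc51b 0.12, Slc26a3 0.065, Adipoq 0.042, Tex16 0.20 and Nlrp1b 0.22. With equal weights of arrays, Plin2 was -0.0091 and Pnpla2 0.011; with array weights, Il6 was -0.069 and Tex16 0.0075; with quantile normalization, Tex16 was 0.0105. Without the 2 tumours raised on chromosome 11, Il6 was -0.041, and without the 2 apart on the components, Ptgs2 was 0.041 and Adipoq 0.0012. Leaving out 1 tumour at a time gave ranges of -0.065 to 0.68 for Pdk4, -0.058 to 0.092 for Plin2, -0.31 to 0.023 for Scd1, -0.16 to 0.37 for Il6, -0.49 to 0.11 for Ptgs2, -0.11 to 0.023 for Lep, -0.11 to 0.038 for Adipoq, -0.068 to 0.046 for Tex16 and -0.049 to 0.031 for Pnpla2.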
